A study of Mus musculus with 24 samples.

Results

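The values of 9 genes of the NRF2 pathway were examined among the 54232 genes counted in visceral adipose tissue of mice. The genes were given as a list of symbols (Nfe2l2, Keap1, Hmox1, Nqo1, Gclc, Gclm, Txnrd1, Srxn1 and Gsr), all 9 were found by their Ensembl identifiers, and all 9 passed the filter of more than 10 counts summed over 24 libraries, as did 26116 genes in all. NRF2, encoded by Nfe2l2, is a transcription factor that switches on genes of antioxidant defence. In the resting cell KEAP1 holds NRF2 and presents it to a ubiquitin ligase for degradation, and oxidants or electrophiles that modify KEAP1 let NRF2 accumulate and bind antioxidant response elements. Because NRF2 is governed largely at the level of the protein, its activity is commonly read from the RNA of its target genes, which make glutathione, reduce thioredoxin and sulfiredoxin substrates, and break down haem and quinones.

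RNA-Seq was carried out on male C57BL6 mice, with 6 mice and 1 library per mouse in each of 4 groups. Their age was 10 weeks according to the series description. The paper gives an age at purchase, before surgery, and does not state the age at tissue collection. Surgery was either partial nephrectomy (PNx), used to model kidney failure, or a sham operation. Every animal also received a lentivirus by intraperitoneal injection, in which the adiponectin promoter, active in adipocytes, drove either GFP alone or NaKtide, a peptide designed to block Src signalling by the Na,K-ATPase. Sham-operated mice are called Control when given GFP and NaKtide when given the peptide, and nephrectomised mice are called PNx and PNx+NaKtide in the same way. The transgene is thus directed to cells that use this promoter, while the RNA came from whole tissue, in which fewer cells of a type and less RNA per cell cannot be told apart.

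Libraries were shallow, with total counts of 1538612 to 2366069 in Control, 679250 to 2053464 in NaKtide, 1619842 to 2979505 in PNx and 1281905 to 1907222 in PNx+NaKtide. On the scale of CPM (counts scaled to a common library size, here with the trimmed-mean factors of edgeR, TMM), a count of 0 allows 3 counts, or 0.739 to 5.91 CPM depending on the library, for counting error only. The 9 genes together held 4231 counts, 0.0101% of all counts. Several libraries stood apart on markers of other cells, here summed as CPM without the TMM factors. The 20 adipocyte markers summed to 322 to 1201 in Control, but to 13172 in PNx replicate 6 and 6508 in NaKtide replicate 6, and all 20 had counts. PNx replicate 6 also held the highest sums of erythrocyte (2260), endothelium (994) and macrophage markers (540, against 378 to 445 in Control), and NaKtide replicate 6 that of skeletal muscle markers (6428) and the second highest of endothelium (509) and erythrocyte markers (238). Epididymis markers, with a median of 1519, were as low as 42.0 in the lowest PNx library and 33.2 in the lowest NaKtide library. PNx replicates 1, 2 and 3 held the highest sperm marker sums of the 24 libraries (2884, 2070 and 3720, against at most 1967 elsewhere) and the lowest kidney marker sums (1166, 1836 and 1624, against at least 2897 elsewhere, with Nphs1 making up 87.9% of the kidney sum). Testis germ cell markers reached 680, 413 and 743 there, against 80.6 to 198 in Control, and were also high in PNx replicate 6 (628) and NaKtide replicate 6 (643). Single genes weighed heavily in other sums too, with Csf1r making up 86.3% of the macrophage sum, Egfl7 56.4% of the endothelium sum and Sycp3 55.9% of the testis germ cell sum. The part of these tissues in the results that follow was not tested.

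The strand of the counts limits what each value means. Genes whose exons overlap those of an opposite-strand gene made up 16.6% of annotated genes and held 79.7% of all counts. On the mitochondrial genome, mt-Nd6, the mRNA gene that lies on the other strand from the rest, had 67.6 times the counts per kilobase of the 12 others together. The library kit was strand-specific, and the strand setting used in counting was not given in the sources used here. If it was the opposite one, a row would hold reads from the strand across from its gene. The values below are therefore counts assigned to each gene, and were not shown to be its mRNA. Of the 9 genes, 7 share no exon base with an annotated gene on the other strand, and the limit holds for their rows too. The exceptions were Keap1, which shares 510 exon bases with the antisense gene Gm16754, and Gclm, which shares 296 with Gm17494.

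Promoter sequence was read for the genes found in the RefSeq promoter table (6 of 9 genes, 8 promoters of GRCm38.p6, each from 250 bases before to 50 bases after a transcription start). The core of the antioxidant response element, TGACNNNGC on either strand, occurred in a promoter of 4 of these 6 genes, against 14.0% of the 27025 genes in the table. The matches are shown because this is the element NRF2 binds, with the 9 matched bases in capitals and 10 bases on each side, written 5′ to 3′ on the strand of the gene.
Nfe2l2: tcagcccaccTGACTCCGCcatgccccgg
Srxn1: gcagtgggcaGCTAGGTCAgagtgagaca
Gclm: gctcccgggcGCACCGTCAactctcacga
Txnrd1: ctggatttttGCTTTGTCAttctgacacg
Coordinates are those of the whole stretch shown, and positions are those of the match. The Nfe2l2 stretch lay at chr2:75704885-75704913 on the minus strand, with its match at position -240 from the start and read in the direction of the gene. The Srxn1 stretch lay at chr2:152105542-152105570 on the plus strand, with its match at position 29 and read on the opposite strand. The same strand held for the Gclm match (stretch at chr3:122245413-122245441, plus strand, position -134) and the Txnrd1 match (stretch at chr10:82859104-82859132, plus strand, position -92 of one of its starts). No match was found in the windows of Keap1 and Nqo1. A match is a run of letters and not a measured binding site.

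The rows of the 9 genes can be ordered per length with the deposited FPKM (fragments scaled by transcript length and library size), here as means over the 24 libraries. The limit of strand given above holds for this order too. On the same scale Gm16754, which overlaps Keap1, stood at 152 and Gm17494, which overlaps Gclm, at 1027. Srxn1, encoding sulfiredoxin, which restores overoxidised peroxiredoxins, was highest at 8.29 FPKM, followed by Keap1 at 7.25 and by Gsr, encoding glutathione reductase, at 3.69. Nfe2l2 at 1.77 and the quinone reductase gene Nqo1 at 1.67 were close to the middle of all tested genes, at percentiles 54.2 and 52.9. Both subunit genes of the enzyme that starts glutathione synthesis were lower, with 0.895 for the modifier subunit gene Gclm and 0.885 for the catalytic subunit gene Gclc. The thioredoxin reductase gene Txnrd1 at 0.756 and the haem oxygenase gene Hmox1 at 0.703 were the lowest. Keap1 and Srxn1 accordingly carried most counts, 1570 and 1064 in all, while Hmox1 rested on 58 counts and was at 0 in 6 libraries.

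**Figure D1:**
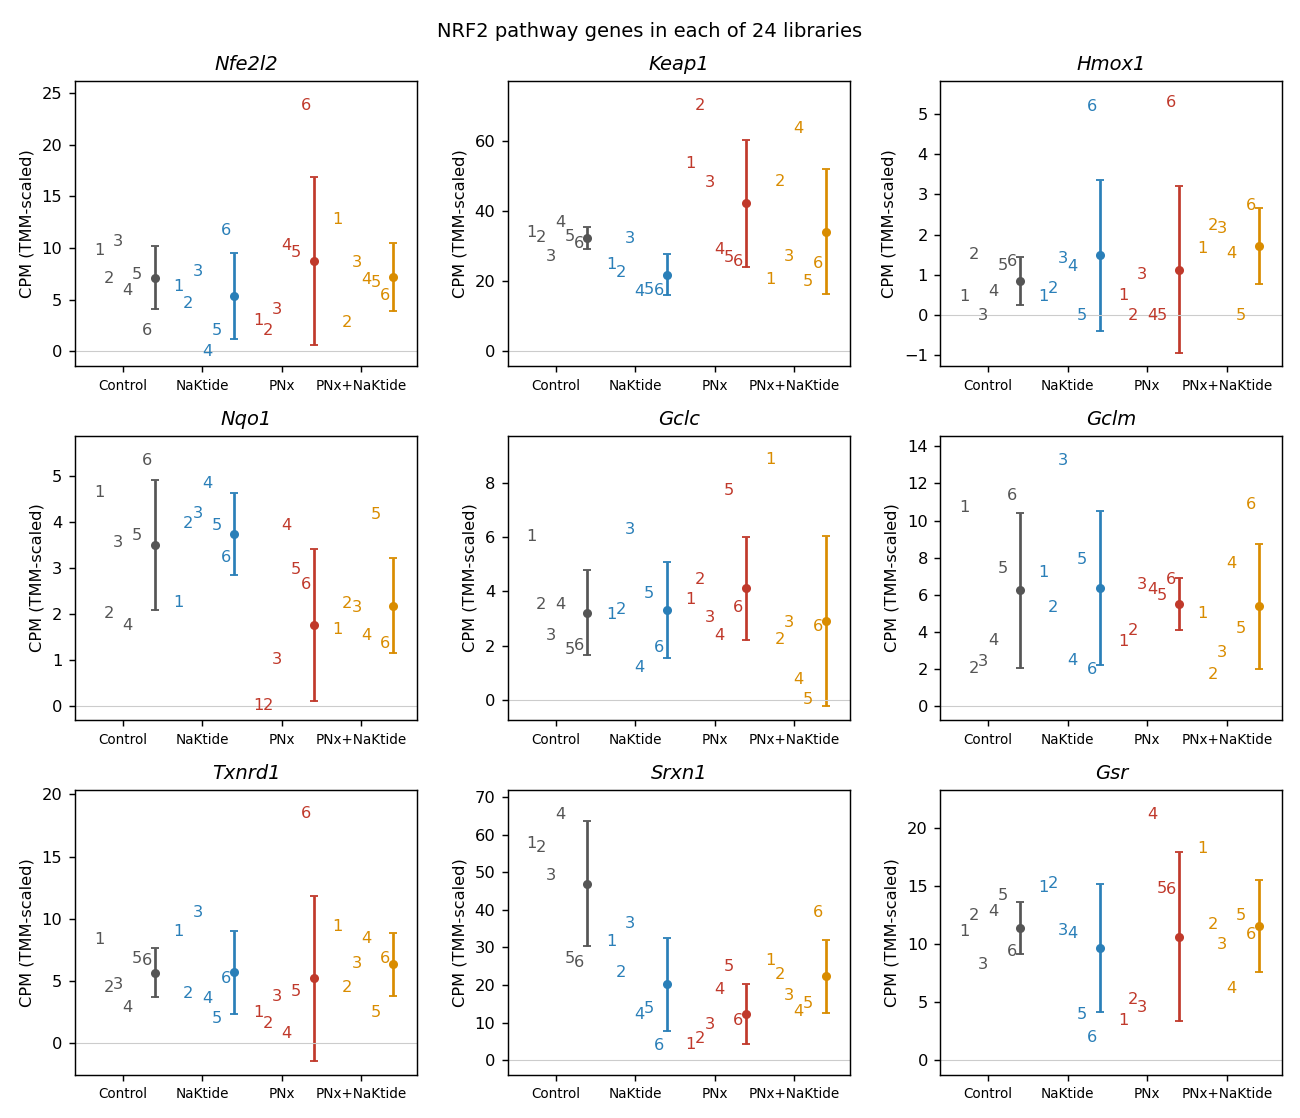
CPM (TMM-scaled, vertical axis) of the 9 genes by group, where each digit is 1 library placed at its value and named by its replicate number, and the dot with bars is the group mean ± SD (n = 6). Srxn1 lies between 4.19 and 24.9 in PNx, below the lowest Control library at 26.1, while the other genes overlap between these groups.

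Srxn1 was the gene of the pathway that differed most between PNx and Control. Its CPM was 57.6, 56.5, 49.1, 65.3, 27.1 and 26.1 in Control replicates 1 to 6 (47.0 ± 16.6, SD, n = 6) and 4.19, 5.65, 9.59, 18.8, 24.9 and 10.6 in PNx (12.3 ± 8.04, SD, n = 6). In these TMM-scaled CPM all 6 PNx libraries lay below the lowest Control library, although PNx replicate 5 and Control replicate 6 were close to each other. The groups overlapped in the deposited FPKM, with 7.89 in PNx replicate 5 and 7.75 in Control replicate 6. They also overlapped in raw counts (42 and 39 in the same libraries). In CPM no other of the 9 genes had groups that did not overlap, and 0.486% of all genes tested showed such a separation in either direction (0.368% with every PNx library lower). The fitted log2 fold change was -1.95 ± 0.48 (SE), with an unadjusted p of 0.000389 and a Benjamini-Hochberg adjusted p of 0.127 by the quasi-likelihood test of edgeR, above the threshold of 0.1. The median gene of all those tested stood at a log2 fold change of 0.36 in this comparison and of 0.76 with DESeq2 size factors, so Srxn1 lay 2.31 below the median gene. In CPM, PNx replicates 1, 2 and 3, which held the highest sperm marker sums, had the lowest Srxn1 values of the PNx and Control libraries. On this scale PNx replicates 4, 5 and 6 were lower than every Control library as well. With PNx replicates 1, 2 and 3 set aside the log2 fold change was -1.44 (adjusted p = 0.393).

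Whether Srxn1 passed the threshold depended on the fit, while the direction did not. Over 10 other settings its log2 fold change ranged from -2.58 to -1.44 and its adjusted p from 4.51e-05 to 0.393, and it passed in 6 of them. DESeq2 gave -1.68 with an adjusted p of 0.00688, and limma voom with sample weights gave -2.58 with an adjusted p of 4.51e-05. Leaving out 1 library at a time gave values from -2.29 to -1.76 and adjusted p from 0.0366 to 0.277, and the gene passed in 5 of 12 such fits, those without Control replicate 5 (adjusted p = 0.0848), Control replicate 6 (0.0759), PNx replicate 4 (0.0366), PNx replicate 5 (0.0579) or PNx replicate 6 (0.0747).

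**Figure D2:**
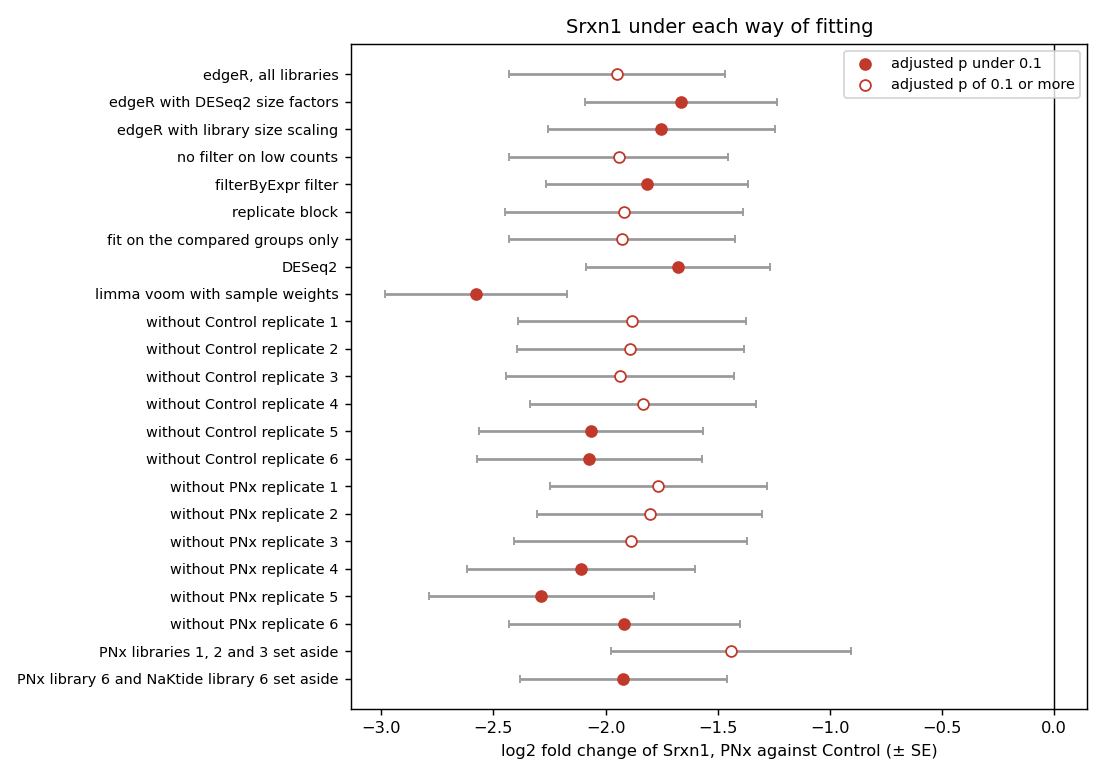
Log2 fold change of Srxn1 in PNx against Control (horizontal axis, ± SE) under each way of fitting (vertical axis), where filled points have an adjusted p under 0.1. All points lie between -2.58 and -1.44, left of the line at 0, and filled and open points are mixed.

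The question of NaKtide in nephrectomised mice is addressed by PNx+NaKtide against PNx, which shares the PNx libraries with the comparison above. Srxn1 CPM in PNx+NaKtide was 26.6, 22.9, 17.1, 13.0, 15.0 and 39.4 (22.3 ± 9.76, SD, n = 6). All 6 of these libraries lay above the PNx mean, and 2 of them above the highest PNx library. The log2 fold change was 0.88 ± 0.47 (SE), which did not pass (adjusted p = 0.414, edgeR), against a median of -0.37 for all genes. It was 0.33 (adjusted p = 0.810) with PNx replicates 1, 2 and 3 set aside. In sham mice given NaKtide, Srxn1 CPM was 31.5, 23.2, 36.3, 12.1, 13.8 and 3.88 (20.1 ± 12.4, SD, n = 6), with all 6 libraries below the Control mean. The log2 fold change of NaKtide against Control was -1.20 ± 0.47 (unadjusted p = 0.0170, adjusted p = 1.00, edgeR). The order of the group means was therefore Control, PNx+NaKtide, NaKtide and PNx, and the middle groups differed by less than their spread, with a log2 fold change of 0.14 ± 0.47 for PNx+NaKtide against NaKtide. The interaction of nephrectomy and NaKtide, the difference between the effect of PNx with and without the peptide, was 2.08 ± 0.67 on the log2 scale (unadjusted p = 0.00435, adjusted p = 0.473, edgeR) and did not pass.

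Keap1, the repressor of the pathway, varied most within the nephrectomised groups. Control libraries were narrow, at 33.9, 32.5, 27.2, 36.8, 32.7 and 30.8 CPM (32.3 ± 3.18, SD, n = 6). In PNx the values were 53.7, 70.3 and 48.2 in replicates 1 to 3, all above the highest Control library, and 29.1, 26.7 and 25.7 in replicates 4 to 6 (42.3 ± 18.1, SD, n = 6). Its log2 fold change was 0.39 ± 0.34 (SE, adjusted p = 0.454, edgeR), within 0.03 of the median of all genes, and it was -0.32 with PNx replicates 1, 2 and 3 set aside. DESeq2 called Keap1 higher in PNx (0.98, adjusted p = 0.0456), against a median of 0.79 for all genes in that fit. In PNx+NaKtide the values were 20.5, 48.5, 27.1, 63.7, 19.96 and 25.1 CPM (34.2 ± 17.9, SD, n = 6), a log2 fold change against PNx of -0.31 ± 0.35. In NaKtide they ranged from 17.0 to 32.1 (21.9 ± 5.91, SD, n = 6), and 5 of these 6 libraries lay below the lowest Control library. The antisense gene Gm16754 (chr9:21225371-21233046), which had 10.9 times the counts of Keap1, averaged 465 ± 96.7 CPM in Control and 338 ± 110 in PNx (SD, n = 6 each), a log2 fold change of -0.46 ± 0.25 (adjusted p = 0.230, edgeR). In PNx replicates 1 to 6 Gm16754 was at 293, 350, 218, 527, 381 and 256 CPM, an order that did not follow that of Keap1 in either direction.

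**Figure D3:**
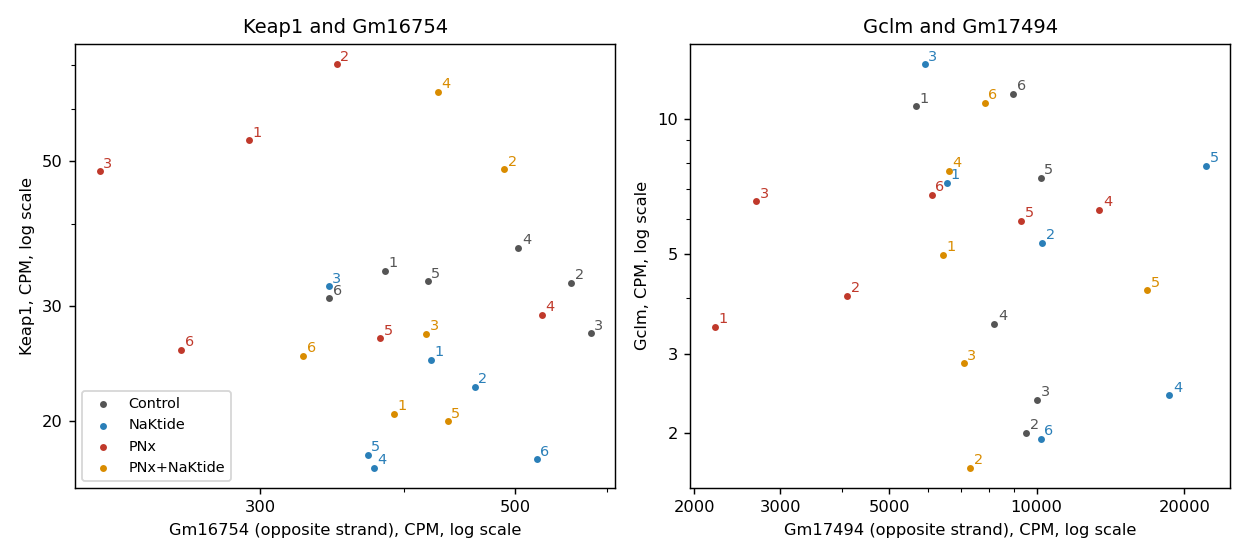
CPM of Keap1 against Gm16754 (left) and of Gclm against Gm17494 (right) on log scales, 1 point per library, coloured by group and named by replicate number. PNx replicates 1, 2 and 3 lie in the upper part of the left panel, at 48.2 to 70.3 CPM of Keap1 and with PNx+NaKtide replicates 2 and 4, and at the left edge of the right panel.

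Nfe2l2, the gene of the transcription factor itself, did not differ between groups beyond the spread of its libraries. Its CPM was 9.75, 7.005, 10.7, 5.83, 7.40 and 2.01 in Control (7.11 ± 3.07, SD, n = 6). PNx values were 2.96, 2.02, 4.04, 10.2, 9.50 and 23.8 (8.75 ± 8.12, SD, n = 6). Replicates 1 to 3 of PNx were low and replicate 6, the library richest in adipocyte, endothelium and erythrocyte markers, was the highest of all 24. The log2 fold change was 0.28 ± 0.59 (SE, adjusted p = 0.773, edgeR), and it was -0.37 without PNx replicate 6. NaKtide averaged 5.37 ± 4.16 and PNx+NaKtide 7.18 ± 3.33 (SD, n = 6 each), and PNx+NaKtide against PNx gave -0.27 ± 0.59 (adjusted p = 0.817, edgeR).

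Gsr, whose product returns oxidised glutathione to its reduced form, divided the PNx libraries in the opposite way to Keap1. It was at 8.28 to 14.2 CPM in Control (11.4 ± 2.23, SD, n = 6). In PNx it was 3.45, 5.25 and 4.54 in replicates 1 to 3, below every Control library, and 21.2, 14.8 and 14.7 in replicates 4 to 6, above every one (10.7 ± 7.26, SD, n = 6). The group means thus hardly differed (log2 fold change -0.12 ± 0.46, adjusted p = 0.881, edgeR), and the value was 0.50 with PNx replicates 1, 2 and 3 set aside. NaKtide ran from 15.3 down to 1.94 (9.68 ± 5.56, SD, n = 6) and PNx+NaKtide averaged 11.6 ± 3.95 (SD, n = 6), with 0.15 ± 0.47 against PNx (adjusted p = 0.878, edgeR).

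Among the detoxifying enzymes, Nqo1, which reduces quinones, was listed at 0 in PNx replicates 1 and 2, at 1.01 CPM in replicate 3, and at 3.93, 2.97 and 2.64 in replicates 4 to 6 (1.76 ± 1.65, SD, n = 6). Control libraries held 1.75 to 5.35 CPM (3.50 ± 1.42, SD, n = 6), so PNx replicates 1, 2 and 3 lay below all of them and the others within their range. The log2 fold change was -1.09 ± 0.65 (SE, adjusted p = 0.267, edgeR) on a gene of 105 counts in all, and -0.20 with PNx replicates 1, 2 and 3 set aside. NaKtide averaged 3.74 ± 0.893 and PNx+NaKtide 2.18 ± 1.03 (SD, n = 6 each), and the latter was 0.41 ± 0.67 from PNx on the log2 scale (adjusted p = 0.748, edgeR). Hmox1, which degrades haem, averaged 0.853 ± 0.592 CPM in Control, 1.13 ± 2.07 in PNx, 1.48 ± 1.88 in NaKtide and 1.71 ± 0.941 in PNx+NaKtide (SD, n = 6 each). These means are near or under the limit that a count of 0 allows in most libraries. The log2 fold changes were 0.46 ± 0.89 for PNx against Control and 0.52 ± 0.86 for PNx+NaKtide against PNx, neither of which passed by edgeR, and without PNx replicate 6 they were -0.99 and 1.97. The second passed by voom (1.76, adjusted p = 0.0397). PNx replicate 6 at 5.28 and NaKtide replicate 6 at 5.17 were the highest Hmox1 values, and both libraries were the richest in adipocyte, endothelium and erythrocyte markers.

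The genes of glutathione synthesis showed no difference that passed. Gclc averaged 3.21 ± 1.56 CPM in Control, 4.11 ± 1.90 in PNx, 3.31 ± 1.76 in NaKtide and 2.90 ± 3.13 in PNx+NaKtide (SD, n = 6 each). Its log2 fold changes were 0.33 ± 0.57 for PNx against Control and -0.44 ± 0.58 for PNx+NaKtide against PNx. Leaving out 1 library moved them between 0.070 (without PNx replicate 5) and 0.61 (without Control replicate 1), and between -1.19 (without PNx+NaKtide replicate 1, which held 8.86 CPM) and -0.18 (without PNx replicate 5). Gclm averaged 6.22 ± 4.19, 5.51 ± 1.41, 6.34 ± 4.17 and 5.37 ± 3.38 in the same order of groups, with -0.18 ± 0.52 and -0.04 ± 0.52 for the same comparisons. Like the other rows, that of Gclm was not shown to hold mRNA of its gene. The overlapping Gm17494 (chr3:122255958-122293720) had 1302 times its counts. Txnrd1, whose product keeps thioredoxin reduced, averaged 5.66 ± 1.97 in Control and 5.71 ± 3.32 in NaKtide. In PNx it was 2.46, 1.62, 3.78, 0.785 and 4.16 in replicates 1 to 5 but 18.5 in replicate 6 (5.22 ± 6.63, SD, n = 6). PNx+NaKtide averaged 6.34 ± 2.54 for Txnrd1, and its log2 fold changes were -0.10 ± 0.55 for PNx against Control and 0.26 ± 0.55 for PNx+NaKtide against PNx. Without PNx replicate 6 these were -1.09 and 1.26.

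**Figure D4:**
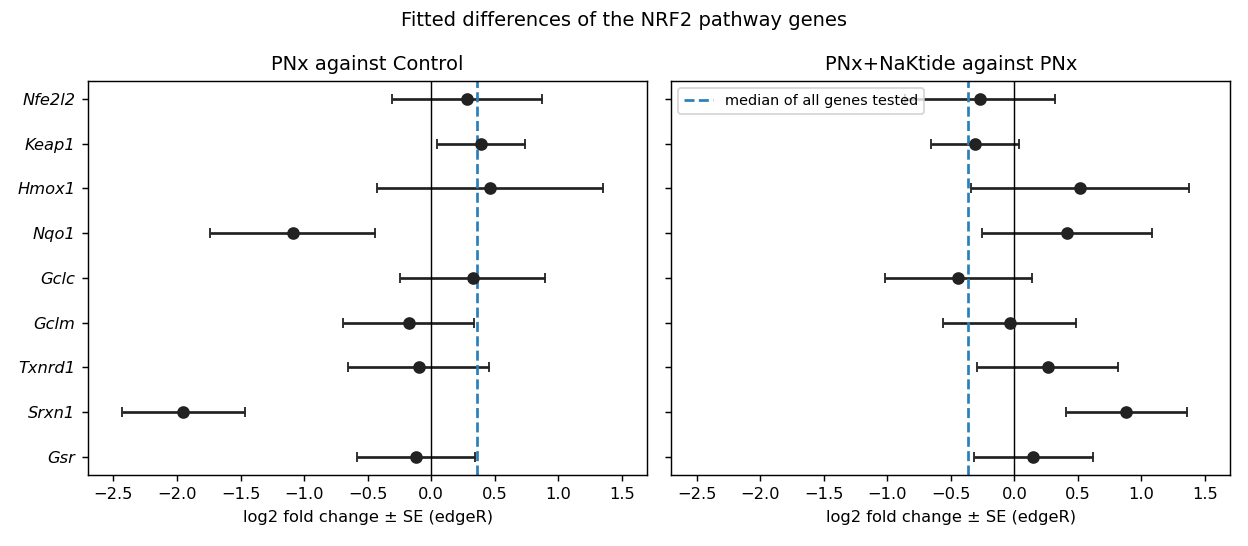
Log2 fold change (horizontal axis, ± SE, edgeR) of each of the 9 genes in both comparisons that hold the PNx group, PNx against Control on the left and PNx+NaKtide against PNx on the right, which share the PNx libraries. The dashed line is the median of all genes tested, 0.36 on the left and -0.37 on the right, and Srxn1 at -1.95 is the gene farthest from it on the left.

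Counted over the pathway, 0 of 9 genes passed an adjusted p of 0.1 in PNx against Control by edgeR, where 0.0766% of all genes did. At an unadjusted p under 0.05 there was 1 of 9 (Srxn1, lower), against 25.4% of all genes. DESeq2 called 2 of 9 (Keap1 higher, Srxn1 lower) against 29.7% of all genes. The voom fit called 5 of 9 (Keap1 higher and Nqo1, Txnrd1, Srxn1 and Gsr lower) against 63.8% of all genes, with weights of 0.930 to 1.80 for PNx replicates 1, 2 and 3 and of 0.170 to 0.243 for replicates 4, 5 and 6, so that its PNx values rested mainly on the former. The middle value among the 9 genes was -0.10 on the log2 scale, against 0.36 for all genes, with 4 above 0 and 5 below.

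In PNx+NaKtide against PNx, 0 of 9 passed by edgeR (0% of all genes) and 0 at an unadjusted p under 0.05 (12.7%). DESeq2 called 0 (5.80%), and voom called 5 as higher in PNx+NaKtide (Hmox1, Nqo1, Txnrd1, Srxn1 and Gsr) against 44.0% of all genes. The median over the 9 genes was 0.15, against -0.37 for all genes. In NaKtide against Control 0 of 9 passed by edgeR (0%), 1 reached an unadjusted p under 0.05 (Srxn1, 3.95%), and DESeq2 (0.0115%) and voom (0.00766%) called 0. In PNx+NaKtide against NaKtide the count was 0 by edgeR (0%), 0 at an unadjusted p under 0.05 (4.09%), 0 by DESeq2 (0.00766%) and 0 by voom (0%). For the interaction it was 0 by edgeR (0%), 1 at an unadjusted p under 0.05 (Srxn1, 9.27%), 0 by DESeq2 (0.360%) and 2 by voom (Nqo1 and Srxn1, both above 0, 25.5%).

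A wider list of 67 genes linked to NRF2 (regulators, glutathione and thioredoxin enzymes, suppliers of NADPH, haem and iron handling, and enzymes of carbonyl, quinone and drug metabolism) had 63 tested genes. By edgeR 0 of 63 passed an adjusted p of 0.1 in any of the 5 comparisons. In PNx against Control 8 reached an unadjusted p under 0.05 (25.4% of all genes did), with 4 higher and 4 lower, and the median of the list was 0.18, against 0.36 for all genes. DESeq2 called 15 there (12 higher, 3 lower), against 29.7% of all genes, and voom 39 (10 higher, 29 lower), against 63.8%. In PNx+NaKtide against PNx 4 reached an unadjusted p under 0.05 (Btrc higher and Me1, Idh1 and Cyp2a5 lower, named after their values were seen), against 12.7% of all genes. DESeq2 called 4, all lower, against 5.80%, and voom 25 (21 higher, 4 lower), against 44.0%. The median of the list was -0.28, against -0.37 for all genes. The remaining comparisons had 3 genes at an unadjusted p under 0.05 in NaKtide against Control (3.95% of all genes), 2 in PNx+NaKtide against NaKtide (4.09%) and 2 for the interaction (9.27%).

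The most counted gene of each role is described here, and a single gene need not give the level of its branch. Btrc, a ubiquitin ligase subunit that also acts on NRF2, averaged 458 ± 71.1 CPM in Control, 219 ± 193 in PNx and 497 ± 216 in PNx+NaKtide (SD, n = 6 each), and overlaps an opposite-strand gene over 235 exon bases. Slc7a11, the cystine importer that feeds glutathione synthesis, was at 103 ± 15.1, 94.7 ± 86.2 and 102 ± 20.2 in the same groups. Gpx4, which reduces lipid peroxides, averaged 36.2 ± 21.5, 71.5 ± 68.8 and 34.8 ± 10.6. The spread of these genes in PNx exceeded that in Control, as it did for Tkt of the pentose phosphate pathway (34.5 ± 9.85 in Control and 36.9 ± 53.1 in PNx) and Hmox2, the constitutive haem oxygenase gene (135 ± 25.6 and 103 ± 50.2), which overlaps an opposite-strand gene over 892. Prdx1, a peroxiredoxin, was at 34.4 ± 8.06 in Control and 41.8 ± 11.9 in PNx, and the retinal dehydrogenase gene Aldh1a1 at 55.4 ± 16.4 and 35.7 ± 27.8.

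**Figure D5:**
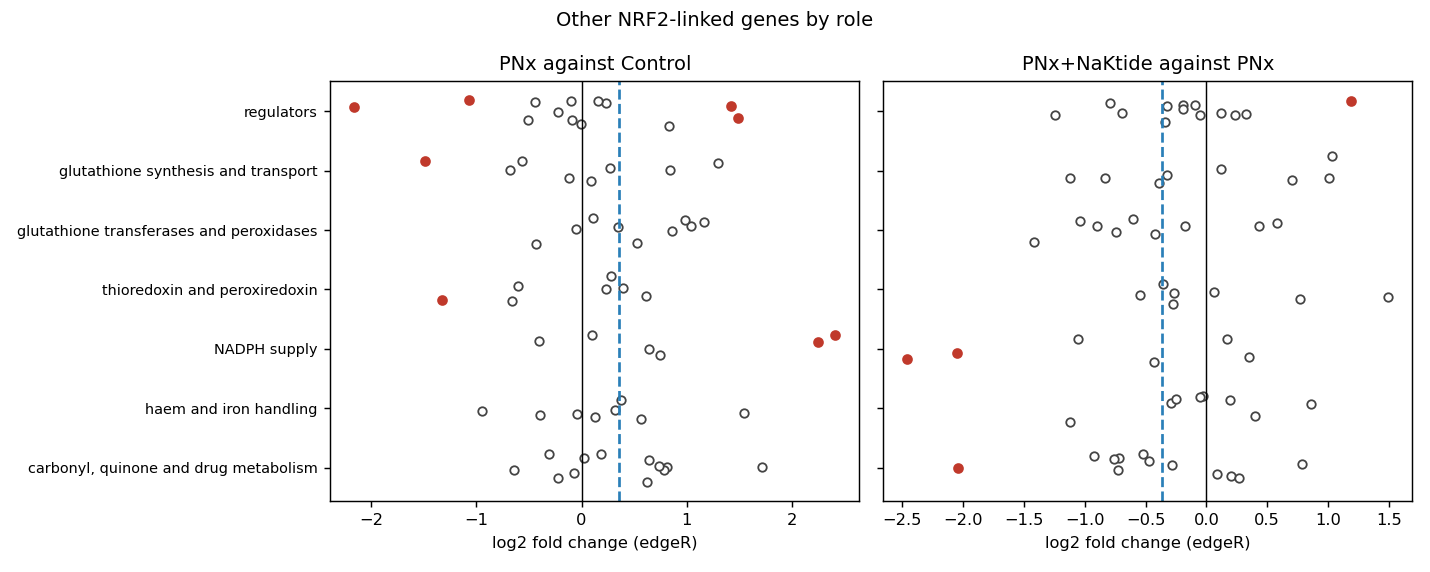
Log2 fold change (horizontal axis, edgeR) of the 63 tested genes of the wider list by role (vertical axis, points spread within a role for legibility), with PNx against Control on the left and PNx+NaKtide against PNx on the right. Filled points have an unadjusted p under 0.05 (8 on the left, 4 on the right), the dashed line is the median of all genes, and no gene passed an adjusted p of 0.1.

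Likeness to other genes was measured as the root mean square difference in log2 CPM, centred on each gene, over the 24 libraries and 8037 protein-coding genes of at least 5 CPM. Nearest to Nfe2l2 were Asb6 (0.563), Cd151 (0.569) and Slc25a5 (0.582), where the median gene stood at 1.14. These values are descriptions over libraries that share their depth and their groups.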

How the data were processed

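Adipose RNA of 24 mice was sequenced as paired reads from strand-specific mRNA libraries. According to the submitters' processing notes the authors trimmed reads with Trimmomatic 0.38, aligned them to GRCm38 with HISAT2 2.1.0 and used DESeq2 1.20.0, and they counted reads per gene with GenomicAlignments. Neither source nor file states the strand setting or annotation release. Deposited raw counts were used for all tests and the deposited FPKM to order levels between genes, while the deposited normalized values were not used here. Low counts limit precision. Apart from counting error, values of a gene varied between mice with a biological coefficient of variation of 71.4% (common dispersion 0.509).

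Names, coordinates and strands came from GENCODE M21 (54165 of 54232 identifiers matched), and promoters from RefSeq. Genes with more than 10 summed counts were fitted with edgeR 4.0.16 in R 4.3.3 (TMM scaling, robust quasi-likelihood F-test, 4 group means, Benjamini-Hochberg adjusted p under 0.1 over all genes), and the SE is the absolute log2 fold change over the square root of F. The script was tested on simulated data. Alternatives were DESeq2 1.42.0, limma 3.58.1 voom with sample weights, other scalings and filters, fits on the compared groups, a replicate block, an adjusted p under 0.05, and leaving out each library. Setting aside PNx libraries 1, 2 and 3, or PNx library 6 with NaKtide library 6, was chosen after seeing the data. The members, the wider list and the marker lists (adipocyte, macrophage, epididymis, testis germ cell, sperm, erythrocyte, skeletal muscle, kidney and endothelium, matched except 1 erythrocyte symbol) were chosen with earlier results of these data known. Named genes were all 9 members, genes sharing exon bases with them on the opposite strand, called genes of the wider list or else the most counted per role, and the 3 protein-coding genes nearest to Nfe2l2 and to the most counted member. The genes nearest to the most counted member are not reported here. Replicates are separate mice. Within groups, no pair of libraries agreed within sampling noise (lowest chi-square per degree of freedom 1.72, Control replicates 5 and 6). Some pairs were far closer than others of their group, among them NaKtide replicates 1 and 3 (2.38) and PNx+NaKtide replicates 2 and 3 (2.16). Control replicates 3 and 6, by contrast, stood at 19.5. The fits took the libraries of a group as independent, which was not tested.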

Additional observations from a re-analysis of the deposited data

Results flagged for a closer look

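In 5 of 36 sets of 6 libraries (9 genes in 4 groups), the highest library lay far from the others of its group by Dixon's criterion at the 95% level. With independent and normally distributed values chance would give about 1 in 20 sets, or 1.8, but these are low counts and some sets share a library. Hmox1 was at 5.28 CPM in PNx replicate 6, with the others at 0 to 1.01, and at 5.17 CPM in NaKtide replicate 6, with the others at 0 to 1.40. Txnrd1 was at 18.5 CPM in PNx replicate 6, with the others at 0.785 to 4.16. These are the libraries with the highest sums of adipocyte markers (13172 in PNx replicate 6 and 6508 in NaKtide replicate 6), endothelium markers (994 and 509) and erythrocyte markers (2260 and 238), and their testis germ cell markers summed to 628 and 643. Nqo1 was at 4.16 CPM in PNx+NaKtide replicate 5 (5 counts, with the others at 1.36 to 2.23 CPM from 2 to 4 counts), and Gclc at 8.86 CPM in PNx+NaKtide replicate 1 (others 0 to 2.86).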

How the results depend on the processing

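The number of the 9 genes called in PNx against Control, 0 as reported, was 2 with DESeq2 size factors, 1 with library size scaling, 1 with the filterByExpr filter, 2 by DESeq2, 5 by voom, 1 with PNx and NaKtide libraries 6 set aside, and 0 to 1 leaving out 1 library. In PNx+NaKtide against PNx and for the interaction it moved by voom only, to 5 and 2. With the replicate block it was 0 in every comparison. Hmox1, Nqo1 and Gclc did not pass the filterByExpr filter and were not tested under it. Whether the replicate numbers pair the mice was not settled. Of the same-numbered pairs, 19 of 36 correlated above 0.1 (r from -0.59 to 0.71), and 10 of 24 libraries correlated best with their own number. The share that would arise without pairing was not computed. Values of small size changed sign, and none of these was called in the reported fit. For PNx against Control, Gclm was 0.26 with DESeq2 size factors, 0.076 with library size scaling, 0.060 with filterByExpr, 0.26 by DESeq2 and 0.041 by voom. Gsr was 0.14, 0.076, 0.031 and 0.13 in the first 4 of these, Txnrd1 0.19, 0.31, 0.093 and 0.22, and with PNx libraries 1, 2 and 3 set aside Gsr was 0.50, Txnrd1 0.41 and Keap1 -0.32. Hmox1 was -0.20 with the replicate block, -0.72 by voom and -0.98 without libraries 6, and Nfe2l2 -0.86 by voom and -0.37 without libraries 6. For PNx+NaKtide against PNx with PNx libraries 1, 2 and 3 set aside, Gsr was -0.50, Hmox1 -0.091, Keap1 0.34, Nqo1 -0.49 and Txnrd1 -0.26. Gsr was -0.016 with DESeq2 size factors, Txnrd1 -0.071 with library size scaling, Nfe2l2 0.79 by voom and 0.38 without libraries 6, and Gclm 0.038 without libraries 6. For PNx+NaKtide against NaKtide, Srxn1 was -0.20 by voom and -0.088 without libraries 6. Leaving out 1 library, PNx against Control ranged from -0.36 to 0.072 for Gclm, -0.42 to 0.068 for Gsr, -0.99 to 0.71 for Hmox1, -0.37 to 0.49 for Nfe2l2 and -1.09 to 0.088 for Txnrd1. PNx+NaKtide against PNx ranged from -0.37 to 0.092 for Gclm, -0.042 to 0.43 for Gsr and -0.52 to 0.38 for Nfe2l2, 0.048 to 1.26 for Txnrd1, -1.19 to -0.18 for Gclc and 0.27 to 1.97 for Hmox1, and PNx+NaKtide against NaKtide from -0.10 to 0.39 for Srxn1. The cause was not tested. Of the single-gene values in fits without 1 library, 237 kept their direction and side of the threshold, 22 changed sign and 5 newly passed. In the other fits 152 kept them, 33 changed sign and 18 newly passed.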
